A study of Mus musculus with 6 samples.

Results

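The genes examined were those of the subunits of the ionotropic glutamate receptors (AMPA, kainate and NMDA types), the metabotropic glutamate receptors, the GABA-A, GABA rho and GABA-B receptors and the glycine receptors. Members were taken by gene symbol (Gria, Grik, Grin, Grm, Gabr, Gabbr, Glra and Glrb names, with Grm6 left out by the rule), among probe sets that name a single gene. This gave 42 genes of 18193, read by 86 probe sets of 34945. A probe set is a group of short oligonucleotides that reads 1 transcript, and each gene was taken from its brightest probe set (highest mean of the 6 arrays). Trim9 KO mice, which lack exon 1 of Trim9 after Cre excision from a cross with CMV-cre mice, were compared with WT littermates. Adult retinas gave 3 Trim9 KO and 3 WT samples, each on an Affymetrix mouse genome array, to ask whether loss of this ubiquitin ligase changed the retina. CMV-cre acts in most tissues, so the loss was not limited to the retina, and the labels do not say whether retinas were pooled. A treatment note in the labels speaks of embryos and was not followed, since title, tissue and design text give adult retina.

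Glutamate carries signals from photoreceptors to bipolar cells and from bipolar cells to amacrine and ganglion cells. GABA and glycine are the transmitters of the inhibitory amacrine cells, and rho-type GABA receptors sit mainly on the axon terminals of bipolar cells. Ionotropic receptors are ion channels assembled from several subunits, and metabotropic receptors act through G proteins.

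Intensities were used as log2(intensity + 16), and every level below is on that scale. A level compares the arrays for 1 probe set, and signals of different probe sets do not rank the abundance of different genes. To show which members stood out of background, a per-array level was set at the 90th percentile of 19 genes of other organs, such as Alb of liver and Prm1 of testis. This off-organ level was 10.53, 9.62 and 8.82 on Trim9 KO arrays 1, 2 and 3, against 8.69, 10.74 and 8.25 on WT arrays 1, 2 and 3. It was highest on WT array 2 and Trim9 KO array 1, so a like signal stood clear of it on some arrays and not on others.

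The arrays differed beyond genotype. Trim9 KO array 1 correlated with the other arrays at r = 0.47 to 0.52 over all probe sets, against 0.66 to 0.89 among the other 5 arrays. The 3' to 5' signal ratio of the Actb control, a sign of RNA integrity, was 2.83, 94.5 and 90.5 on the Trim9 KO arrays, against 20.2, 9.87 and 3.43 on the WT arrays. The same ratio of Gapdh ordered the arrays otherwise, at 134, 153 and 163 on the Trim9 KO arrays, against 310.1, 82.0 and 0.905 on the WT arrays. Trim9 itself, whose probe set may read outside the deleted exon, had intensities of 1498, 497 and 367 on the Trim9 KO arrays, against 4226, 1767 and 1667 on the WT arrays, with no overlap. Its log2 fold change was -1.81 (SE 0.99) with a limma adjusted p of 0.999. The deleted gene thus did not pass the test used below for the members either. Rod markers, at mean levels of 15.38 to 16.48 in Trim9 KO and 15.81 to 16.47 in WT retinas, were above the off-organ level on every array for 8 of 8 genes. Bipolar cell markers were at 10.14 to 11.13 in Trim9 KO and 10.68 to 11.05 in WT, with 4 of 8 higher in Trim9 KO. Amacrine cell markers were at 11.10 to 12.48 in Trim9 KO and 10.69 to 12.63 in WT, with 3 of 9 higher. Ganglion cell markers were at 11.18 to 11.50 in Trim9 KO and 11.29 to 12.06 in WT, with 4 of 9 higher. These ranges overlapped between genotypes. Over all genes, 10037 of 18193 had a higher and 8156 a lower Trim9 KO mean. Pigment epithelium markers were at 10.22 to 12.001 in Trim9 KO and 10.05 to 10.28 in WT samples. Of these, 7 of 7 had a higher Trim9 KO mean. Muller glia markers were at 12.09 to 13.13 in Trim9 KO and 13.33 to 13.85 in WT samples, and 7 of 8 had a lower Trim9 KO mean. Horizontal cell markers were at 8.84 to 9.63 in Trim9 KO and 9.72 to 10.24 in WT samples, and 5 of 5 had a lower Trim9 KO mean. The Muller glia and horizontal cell ranges did not overlap between genotypes, but 0 single genes of either list were separated. Above the off-organ level on every array were 5 of 8 Muller glia markers and 1 of 5 horizontal cell markers. As summed intensities the ranges of these lists overlapped between genotypes (339727 to 1366310 in Trim9 KO and 73505 to 473691 in WT samples for pigment epithelium, 372704 to 454146 in Trim9 KO and 208384 to 582740 in WT for Muller glia, 15193 to 34678 in Trim9 KO and 20011 to 40727 in WT for horizontal cells). The part of these array and cell type differences in the results below was not tested, and in whole retina fewer cells of a type and less RNA per cell cannot be told apart.

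No receptor subunit gene passed the test between genotypes. With limma over 45037 probe sets and Benjamini-Hochberg adjustment, 0 of 42 members had an adjusted p under 0.05 (0% of all probe sets did), and the lowest adjusted p was 0.999. At an unadjusted p under 0.05, 0 of 42 genes and 1 of 86 member probe sets passed, against 2.88% of all probe sets. The means of 25 members were higher and those of 17 lower in Trim9 KO retinas, and the median log2 fold change was 0.57, against 0.14 over all genes. Member fold changes ran from -1.45 to 2.35 with standard errors of 0.89 to 1.64, and 29 of the 42 were smaller than their own standard error. On 5 members every Trim9 KO array read above every WT array (11.9%, against 5.35% of all genes), namely Grik3, Grin3a, Grm7, Gabbr1 and Glrb. On 0 members every Trim9 KO array read below every WT array, against 2.89% of all genes. For each of the 5, a two-sided exact permutation test gave p = 0.1, the smallest that 3 against 3 arrays allow. That value follows from the separation by which the 5 were picked and adds no support. With equal array medians only Grin3a stayed separated, and the members' median fold change was 0.25, against -0.14 over all probe sets. After quantile normalization Grin3a, Grm7, Gabbr1 and Glrb stayed separated and Grik3 did not. With all probe sets of a gene averaged only Grin3a and Gabrp were separated, and the median was 0.0581, against 0.12 over all genes. The shares of all genes separated under these settings are not given, so these counts cannot be set against the whole table.

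**Figure D1:**
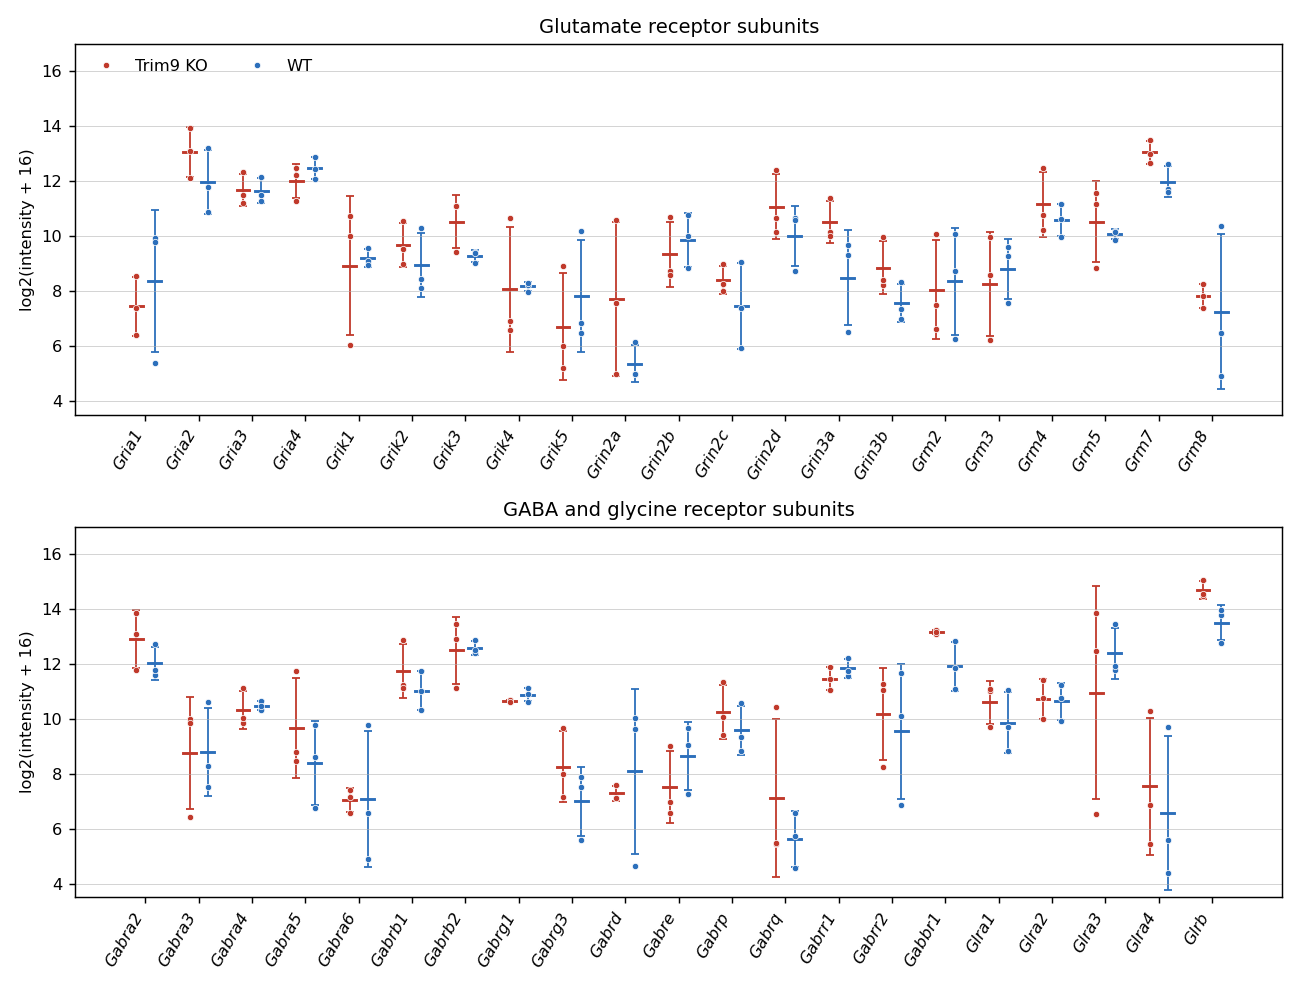
Level of each receptor subunit gene, log2(intensity + 16), on the 3 Trim9 KO arrays (red, left) and the 3 WT arrays (blue, right). Points are arrays, bars the mean and whiskers the SD (n = 3), and the genotypes overlap for all but 5 of the 42 genes.

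Above the off-organ level on all 6 arrays were 12 members (28.6%, against 23.5% of all genes), on 1 to 5 arrays 25, and on no array 5. The 12 were Gria2, Gria3, Gria4, Grm4, Grm7, Gabra2, Gabrb2, Gabrg1, Gabrr1, Gabbr1, Glra1 and Glrb, so each class but the kainate and NMDA receptors had at least 1. The 5 that never stood above it were Grin2c, Gabra6, Gabrg3, Gabrq and Glra4. Gabra6 is known from granule cells of the cerebellum, and Grin2c too is mainly a cerebellar subunit. The median SD within a genotype was 0.58 for the 12 members, against 1.58 for the other 30. Over the whole table it was 0.77 for genes above the level on all 6 arrays, against 1.21 for all genes. A gene with any low array is not among those above the level, so a smaller SD is partly built in. The number of members above the level was 22, 24 and 25 on the Trim9 KO arrays, against 25, 14 and 33 on the WT arrays, lowest where the level itself was highest. The median level of the other 30 members was 9.93, 8.98 and 8.58 on the Trim9 KO arrays, against 8.31, 9.59 and 9.34 on the WT arrays. Over all probe sets the array medians were 9.69, 8.90 and 8.07 in Trim9 KO, against 7.87, 9.43 and 8.38 in WT, so these 30 members were highest on the same 2 arrays as the whole table. Not all of the 30 were dim, since 16 had a mean above the median of all probe sets. The 12 members did not share that order, with medians of 11.95, 11.72 and 12.73 on the Trim9 KO arrays, against 12.43, 11.58 and 11.69 on the WT arrays.

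**Figure D2:**
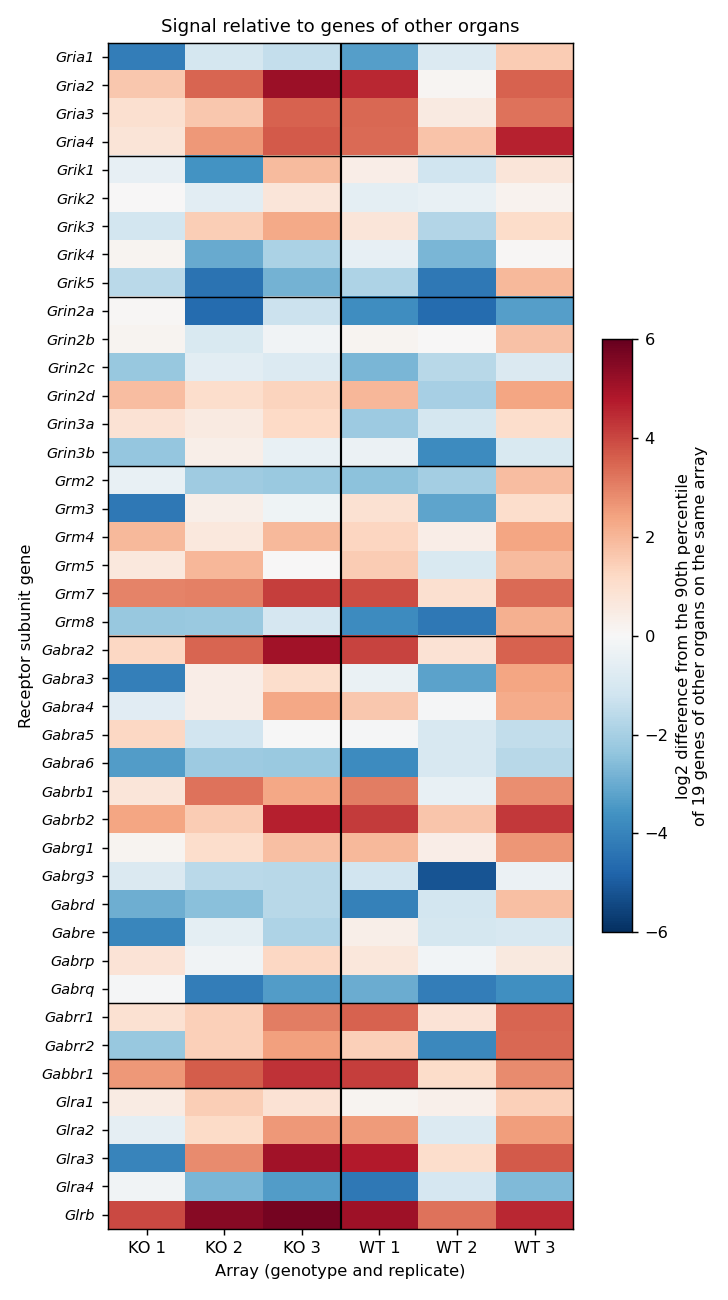
Level of each receptor subunit gene minus the off-organ level of the same array, with Trim9 KO arrays left and WT arrays right (red above, blue below, log2 units). The 12 members above the level on all 6 arrays form the all-red rows, and WT array 2 has the fewest members above it, 14.

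Promoter windows of neighbouring members are shown, because the genes of many of these subunits lie in clusters and the data give a level for each neighbour. RefSeq windows (build GRCm38.p6, 250 bases before to 50 after a start) were found for 32 of 42 members, as 39 windows. Gria2 and Glrb lie 39370 bases apart on chromosome 3, and Gabrr2 and Gabrr1 lie 36690 bases apart on chromosome 4. Some members lie closer and are not shown, with Gabrg3 and Gabra5 20453 bases apart and Gabra4 and Gabrb1 overlapping. CG dinucleotides are in capitals. The windows are chr3:80802786-80803085 (minus strand) for Gria2, chr3:80913611-80913910 (minus) for Glrb, chr4:33062862-33063161 (plus) for Gabrr2 and chr4:33132306-33132605 (plus) for Gabrr1.
Gria2: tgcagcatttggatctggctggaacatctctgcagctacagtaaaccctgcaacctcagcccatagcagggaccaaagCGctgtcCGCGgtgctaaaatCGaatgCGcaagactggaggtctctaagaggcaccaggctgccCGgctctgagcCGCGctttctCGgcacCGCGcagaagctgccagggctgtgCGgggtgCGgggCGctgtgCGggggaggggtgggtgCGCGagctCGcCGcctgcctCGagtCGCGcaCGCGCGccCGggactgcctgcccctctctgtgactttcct
Glrb: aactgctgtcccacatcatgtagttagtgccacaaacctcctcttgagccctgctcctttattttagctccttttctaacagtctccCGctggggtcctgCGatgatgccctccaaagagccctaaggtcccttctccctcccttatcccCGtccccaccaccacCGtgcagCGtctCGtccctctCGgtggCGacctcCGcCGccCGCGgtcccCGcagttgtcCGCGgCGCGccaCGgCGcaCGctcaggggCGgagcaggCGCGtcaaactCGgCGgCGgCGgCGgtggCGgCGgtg
Gabrr2: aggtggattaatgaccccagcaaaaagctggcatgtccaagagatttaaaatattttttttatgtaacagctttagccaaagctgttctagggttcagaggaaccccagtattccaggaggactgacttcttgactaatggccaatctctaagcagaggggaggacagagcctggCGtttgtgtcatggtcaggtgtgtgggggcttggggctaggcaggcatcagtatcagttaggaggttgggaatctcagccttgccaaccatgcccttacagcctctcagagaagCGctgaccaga
Gabrr1: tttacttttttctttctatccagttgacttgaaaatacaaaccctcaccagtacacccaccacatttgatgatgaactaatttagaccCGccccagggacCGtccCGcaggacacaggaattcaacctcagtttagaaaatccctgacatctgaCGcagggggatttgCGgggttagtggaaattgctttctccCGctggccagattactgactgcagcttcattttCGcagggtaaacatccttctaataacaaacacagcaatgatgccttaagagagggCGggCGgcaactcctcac
The Gria2 window holds 26 CG dinucleotides, Glrb 30, Gabrr2 2 and Gabrr1 9, against a median of 11 over the 39 member windows and 7 over 32851 windows of all genes. The chromosome 3 pair thus lies above and the rho pair below the member median. The Gabrr2 window lies inside its gene, which begins at base 33057712. Likewise the Gria2 window lies inside its gene, which on the minus strand begins at base 80804227. The CG counts of these windows are thus those of inner starts and not of the outermost ones. The letters TAATCC, a core site of the photoreceptor and bipolar cell factors CRX and OTX2, were searched on both strands. They were in 2 of 39 member windows (5.13%, against 7.06% of all windows), those of Gabra2 and Gabrr2, and in Gabrr2 they read GGATTA near the window's start. The TATA box letters TATAAA were in 12.8% of member windows and 13.6% of all windows, and the E-box CACCTG in 17.9% and 20.2%. A match is a description of the letters and not a bound site.

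AMPA receptors carry most fast excitation, and their subunits were among the members clearest of background. Gria2 encodes the subunit that makes the channel nearly closed to calcium. Its probe set 1434146_at read 12.13, 13.09 and 13.95 on the Trim9 KO arrays, against 13.22, 10.88 and 11.80 on the WT arrays. The fold change was 1.09 (SE 1.03), and the genotypes overlapped through WT array 1, which read above 2 Trim9 KO arrays. The other 2 Gria2 probe sets differed by 0.05 and -1.16, so the gene's 3 readings do not share a direction. Gria4, another AMPA subunit, read 11.29, 12.21 and 12.48 on the Trim9 KO arrays, against 12.08, 12.46 and 12.88 on the WT arrays. Its fold change was -0.48 (SE 0.92), the genotypes overlapped, and all 3 of its probe sets had a lower Trim9 KO mean (-0.24 and -1.10 for the other 2). Gria3 differed least, by 0.03 (SE 0.92) within a span of 11.22 to 12.34. Gria1 read 6.40, 8.56 and 7.37 on the Trim9 KO arrays, against 5.39, 9.94 and 9.78 on the WT arrays, and was above the off-organ level on 1 array only. Its fold change of -0.93 had an SE of 1.31, with WT array 1 lowest and the other WT arrays highest.

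Kainate receptor subunits were all above the off-organ level on some arrays and not on others. Grik3, a subunit that can form channels by itself, read 9.43, 11.08 and 11.08 on the Trim9 KO arrays, against 9.43, 9.01 and 9.37 on the WT arrays. The genotypes did not overlap, but Trim9 KO array 1 (intensity 673.0) and WT array 1 (672.5) were nearly the same. The fold change was 1.26 (SE 0.95), and the second Grik3 probe set differed by 0.85 (SE 1.78). Grik1, the subunit of the glutamate receptors of many OFF bipolar cells, read 10.02, 6.04 and 10.72 on the Trim9 KO arrays, against 9.09, 9.56 and 8.96 on the WT arrays. Here the WT arrays lay within the span of the Trim9 KO arrays, of which array 2 was far lowest, and the fold change was -0.28 (SE 1.25). Grik2, like Grik3 able to form channels alone, read 10.55, 8.98 and 9.54 on the Trim9 KO arrays, against 8.11, 10.28 and 8.45 on the WT arrays (fold change 0.74, SE 1.01). Its genotypes overlapped through WT array 2. Grik5, a subunit that needs a partner to form a channel, read 8.91, 5.20 and 6.002 on the Trim9 KO arrays, against 6.83, 6.45 and 10.18 on the WT arrays (-1.12, SE 1.32). It stood above the off-organ level on WT array 3 alone, and its partner-dependent relative Grik4 differed by -0.11 (SE 1.18).

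NMDA receptors need glutamate and glycine together, and their subunits had the highest median fold change among classes of more than 1 gene, 1.18, with 5 of 6 higher in Trim9 KO means and 0 past the test. No NMDA subunit measured was above the off-organ level on every array, and Grin1, the subunit common to these receptors, was not analysed here. Grin3a, a glycine-binding subunit that lowers calcium flow, read 11.40, 10.16 and 10.01 on the Trim9 KO arrays, against 6.49, 9.67 and 9.31 on the WT arrays. The genotypes did not overlap, and the fold change of 2.04 (SE 1.10) drew much of its size from the low WT array 1. A second Grin3a probe set, 1458378_at, read 9.40, 9.47 and 8.33 on the Trim9 KO arrays, against 6.01, 5.47 and 7.50 on the WT arrays. It too did not overlap (fold change 2.74, SE 0.98) and is the 1 member probe set with an unadjusted limma p under 0.05 (0.0173, adjusted 0.999), but it was above the off-organ level on 0 arrays. The third Grin3a probe set differed by -0.87. Grin2a, a glutamate-binding subunit, had the largest fold change of the members, 2.35 (SE 1.33). It read 10.58, 4.99 and 7.55 on the Trim9 KO arrays, against 4.96, 6.14 and 4.96 on the WT arrays, so Trim9 KO array 1 was high and Trim9 KO array 2 lay among the WT values. Only Trim9 KO array 1 was above its off-organ level (10.53), so this fold is set against WT readings at background. Grin3b, the other glycine-binding subunit of this group, read 8.22, 9.96 and 8.39 on the Trim9 KO arrays, against 8.34, 6.98 and 7.34 on the WT arrays (1.30, SE 0.98). WT array 1 lay between the Trim9 KO values. The glutamate-binding subunits Grin2b, Grin2c and Grin2d differed by -0.54, 0.94 and 1.06.

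Metabotropic glutamate receptors tune release and excitability, and Grm7, a presynaptic receptor of low glutamate affinity, was their clearest case. Its probe set 1443119_at read 13.51, 12.66 and 12.98 on the Trim9 KO arrays, against 12.62, 11.70 and 11.62 on the WT arrays. Trim9 KO array 2 and WT array 1 nearly touched, and the fold change was 1.07 (SE 0.92). The other 2 Grm7 probe sets differed by -0.08 and -1.28. Grm4, a presynaptic receptor of the same group, read 12.49, 10.23 and 10.75 on the Trim9 KO arrays, against 9.97, 11.16 and 10.62 on the WT arrays. Its fold change of 0.58 (SE 1.00) rested on Trim9 KO array 1, which was highest, while the other arrays overlapped. Grm3, which like Grm2 lowers cyclic AMP, read 6.23, 9.95 and 8.57 on the Trim9 KO arrays, against 9.60, 7.57 and 9.28 on the WT arrays (-0.57, SE 1.16). Both extremes were Trim9 KO arrays. Grm2, Grm5 (the receptor that acts through calcium release) and Grm8 differed by -0.30, 0.46 and 0.57.

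GABA-A receptors, the main fast inhibitory channels, had 13 members, of which 6 were higher and 7 lower in Trim9 KO means, with a median fold change of -0.04. Gabrg1, a gamma subunit, was the steadiest member. It read 10.70, 10.67 and 10.63 on the Trim9 KO arrays, against 10.64, 11.12 and 10.91 on the WT arrays. The span over all 6 arrays was 0.49 and the fold change -0.22 (SE 0.89). Gabrb2, a beta subunit of synaptic receptors, read 12.91, 11.14 and 13.48 on the Trim9 KO arrays, against 12.89, 12.39 and 12.51 on the WT arrays (-0.09, SE 0.99), with the WT arrays inside the Trim9 KO span. Gabra2, an alpha subunit, differed by 0.88 (SE 0.98). Among members chosen for the size of their statistic, Gabra5, an alpha subunit found mostly outside synapses, read 11.76, 8.46 and 8.80 on the Trim9 KO arrays, against 8.63, 9.79 and 6.75 on the WT arrays. Only Trim9 KO array 1 was above the off-organ level, and the fold change was 1.29 (SE 1.21). Gabrg3, a gamma subunit, read 9.66, 7.99 and 7.15 on the Trim9 KO arrays, against 7.53, 5.58 and 7.89 on the WT arrays (1.27, SE 1.08), and the genotypes overlapped. Gabrq, the theta subunit, read 10.45, 5.46 and 5.48 on the Trim9 KO arrays, against 5.72, 6.58 and 4.56 on the WT arrays (1.51, SE 1.37). Neither was above the off-organ level on any array, and in both Trim9 KO array 1 was the highest. Gabrp, the pi subunit, differed by 0.68 (SE 1.00), and its second, dimmer probe set by 1.71 (SE 0.93) with no overlap, at 9.72, 8.71 and 8.35 on the Trim9 KO arrays, against 6.99, 7.07 and 7.58 on the WT arrays. That probe set was named after its values were seen. The delta subunit Gabrd and the epsilon subunit Gabre differed by -0.81 and -1.13, while Gabra3, Gabra4, Gabra6 and Gabrb1 differed by -0.05, -0.15, -0.04 and 0.72.

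GABA rho receptors respond to GABA with slow currents. Gabrr1 read 11.44, 11.05 and 11.90 on the Trim9 KO arrays, against 12.23, 11.56 and 11.75 on the WT arrays. Its fold change was -0.38 (SE 0.91) and the genotypes overlapped. Gabrr2, its neighbour on chromosome 4, read 8.26, 11.05 and 11.28 on the Trim9 KO arrays, against 10.10, 6.86 and 11.67 on the WT arrays (0.65, SE 1.36). The low arrays were Trim9 KO array 1 and WT array 2, where it was below the off-organ level of that array. Gabbr1, which encodes the GABA-binding subunit of the metabotropic GABA-B receptor, varied little among the Trim9 KO arrays. It read 13.11, 13.23 and 13.17 on the Trim9 KO arrays (SD 0.06), against 12.84, 11.84 and 11.08 on the WT arrays (SD 0.89). The fold change was 1.25 (SE 0.94), and the spread lay in the WT arrays. Another Gabbr1 probe set went the other way, with 10.60, 12.03 and 11.74 on the Trim9 KO arrays, against 11.78, 12.41 and 13.51 on the WT arrays (-1.11), and the remaining 2 differed by 0.05 and 2.39.

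Glycine receptors combine an alpha subunit with the beta subunit Glrb, which holds the receptor at the synapse through gephyrin. Glrb read 14.47, 15.06 and 14.55 on the Trim9 KO arrays, against 13.78, 13.98 and 12.78 on the WT arrays. The genotypes did not overlap, and the fold change was 1.18 (SE 0.92). This probe set is of a type (x_at) whose oligonucleotides may also match other transcripts. The second Glrb probe set read 6.23, 10.71 and 12.59 on the Trim9 KO arrays, against 12.09, 10.19 and 12.15 on the WT arrays, a difference of -1.63 with Trim9 KO array 1 far lowest. Gria2, 39370 bases from Glrb, shared its sign in the brightest probe set but not the separation of the arrays. Glra1, an alpha subunit, read 11.01, 11.10 and 9.70 on the Trim9 KO arrays, against 8.83, 11.04 and 9.70 on the WT arrays (0.75, SE 1.00). WT array 1 was lowest, and the second Glra1 probe set differed by -0.88. Glra3, an alpha subunit found at synapses of the inner retina, read 6.54, 12.47 and 13.85 on the Trim9 KO arrays, against 13.46, 11.79 and 11.94 on the WT arrays. It had the widest span of any member, 7.30, through Trim9 KO array 1, which was the only array below the off-organ level. The fold change was -1.45 (SE 1.64), and the second Glra3 probe set differed by 1.59. Glra2 and Glra4, further alpha subunits, differed by 0.09 and 0.97.

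**Figure D3:**
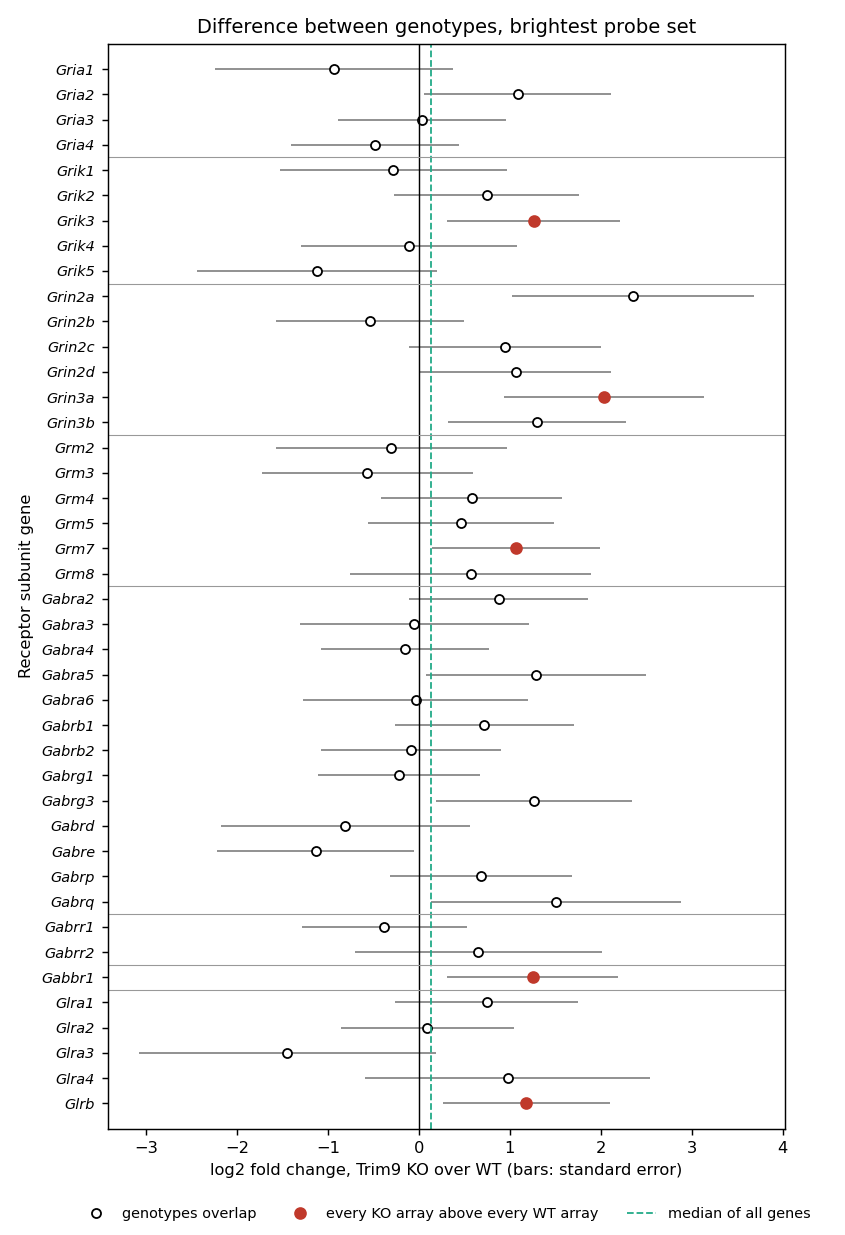
Log2 fold change (Trim9 KO over WT) of each receptor subunit gene with its limma standard error, grouped by receptor class, and the median of all genes (dashed, 0.14). Red points are the 5 genes whose 3 Trim9 KO arrays all read above the 3 WT arrays; 0 of the 42 genes passed the adjusted test.

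Probe sets of the same gene often disagreed. Of 26 members with several probe sets, 12 had all fold changes of 1 sign and 14 had both signs. Of the 72 pairs of probe sets of a gene, 37 correlated negatively over the 6 arrays, a description with no test. The spread of fold changes within a gene was 1.48 at the median, least for Gabrg1 (0.07) and most for Gabrb2 (3.78). For Gabrb2, 3 dimmer probe sets had their lowest readings on Trim9 KO array 1 (7.98, 6.99 and 5.35), where the brightest one read 12.91. Among the 5 separated genes, only Grik3 had all its probe sets higher in Trim9 KO means, while Grin3a, Grm7, Gabbr1 and Glrb had sets of both signs. Over all 86 probe sets, 47 were higher and 39 lower, and the median fold change was 0.10, against 0.18 over all probe sets of the array.

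**Figure D4:**
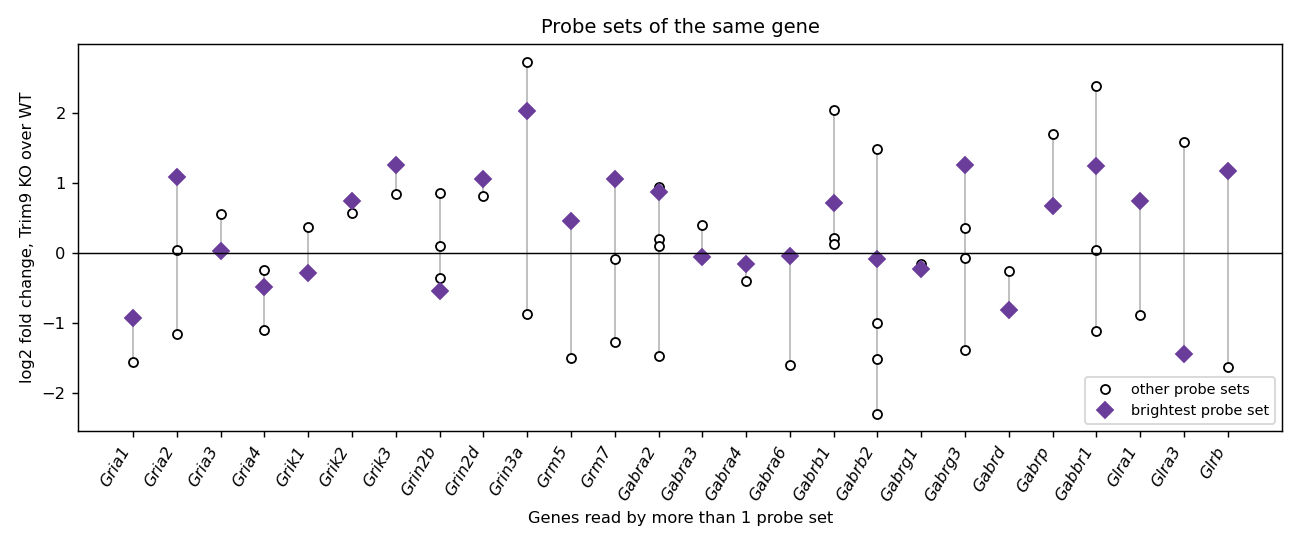
Log2 fold change (Trim9 KO over WT) of every probe set of the 26 genes read by more than 1, with the brightest as a diamond and the others as circles. In 14 of the 26 genes the points lie on both sides of 0.

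The arrays were also split by the Actb ratio, above 15 (Trim9 KO arrays 2 and 3, WT array 1) or below (Trim9 KO array 1, WT arrays 2 and 3), a split chosen after the data were seen. The Gapdh ratio does not give this grouping, since by it only WT array 3 was low and Trim9 KO array 1 and WT array 2 were among the high arrays. The median difference of the members (Trim9 KO minus WT) was 0.28 among the arrays with the high ratio and 0.59 among those with the low ratio, against 0.17 and 0.19 over all genes. Each difference sets a single array (WT array 1 or Trim9 KO array 1) against 2 others, with no replicate on its side. Trim9 KO array 1 was also the array that correlated least with the rest. These values are thus a description only. For 25 of 42 members (59.5%, against 54.6% of all genes) the 2 differences had the same sign. Among these are the members with no overlap between genotypes, named next. Their differences had to be positive in both sets of arrays, so their signs add no support. Grin3a differed by 3.60 and 1.91, Grik3 by 1.65 and 0.24, Glrb by 1.03 and 1.09, Gabbr1 by 0.35 and 1.65, and Grm7 by 0.20 and 1.85. Gria2, Grin3b, Gabra2 and Glra3 read higher on each array with the high ratio than on any other (9.52% of members, against 11.9% of genes), and Grin2b, Grm2, Gabrg1 and Gabrd read lower (9.52%, against 10.3% of genes).

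Among proteins that assist or anchor these receptors, 0 passed the test as well. Of 25 auxiliary and scaffold genes of glutamate receptors, 10 were higher and 15 lower in Trim9 KO means (median fold change -0.25), and the arrays were separated with Trim9 KO higher for 2, against 5.35% of all genes, and lower for 3, against 2.89% of all genes. Cacng8, an auxiliary AMPA receptor subunit, read 11.33, 8.49 and 7.14 on the Trim9 KO arrays, against 5.23, 5.57 and 4.76 on the WT arrays. The genotypes did not overlap, and the fold change was 3.80 (SE 1.16) with a limma adjusted p of 0.999. Only Trim9 KO array 1 was above its off-organ level, so this fold is set against WT readings at background. Cacng2, the auxiliary subunit stargazin, read 8.09, 9.11 and 9.07 on the Trim9 KO arrays, against 9.71, 10.79 and 11.03 on the WT arrays (-1.76, SE 0.94), also with no overlap. Of 9 anchoring genes of GABA and glycine receptors, 3 were higher and 6 lower (median -1.24). Trak2, an adaptor for transport along microtubules, read 10.72, 9.94 and 10.60 on the Trim9 KO arrays, against 10.65, 12.90 and 12.83 on the WT arrays (-1.71, SE 1.00). Ubqln1, which binds GABA-A subunits and slows their breakdown, read 11.84, 10.50 and 12.74 on the Trim9 KO arrays, against 12.66, 13.14 and 14.07 on the WT arrays (-1.60, SE 1.00). In both, WT array 1 overlapped the Trim9 KO values.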

How the data were processed

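RNA of adult retinas was measured on 6 arrays (3 Trim9 KO, 3 WT) of littermates. The deposited values are linear intensities, scaled by the authors to an equal trimmed mean per array (2% left out at each end). The submitters' processing notes name MAS5, with no version, while the methods of the study state RMA; the values have the linear scale and unequal medians of MAS5. The 64 control probe sets were left out, and log2(intensity + 16) of 45037 probe sets was compared with limma 3.58.1 in R 4.3.3, without a block. The Benjamini-Hochberg adjustment was used (threshold 0.05). The fit was also run on simulated arrays with the same spread for every probe set and array. The spread of these data is not so even, so that run checks the code and not the performance of the test here. Tables and figures used Python 3.11.15, pandas 2.3.3, scipy 1.17.1 and matplotlib 3.10.9.

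Members and gene lists were chosen with earlier results of these data known. Values on every array were given for up to 3 members per class with the largest limma statistic, members with no overlap and a mean above the median of all probe sets, selected members known from retinal circuits (Gria2, Grik1, Gabrr1, Gabrr2, Glra1 and Glrb), and up to 2 genes per further list. Some genes of the lists are not analysed here. P-values measure only the spread between these samples, which the labels do not describe further. Precision is limited by the number of arrays. Same-numbered arrays did not deviate together (r of deviations from the genotype means -0.23, -0.08 and 0.03).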

Additional observations from a re-analysis of the deposited data

How the results depend on the processing

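In every alternative 0 members passed the adjusted test, and the lowest limma adjusted p of a named member was 0.613, with the Actb ratio as a block. The replicate block left the median fold change of the members at 0.57 and changed no call. With equal array medians, under which the median of all probe sets moved to -0.14 (0.18 as reported, 0.02 after quantile normalization), 1 member in place of 5 had every Trim9 KO array above every WT array (Grin3a), and the median fold change was 0.25. Quantile normalization kept Grin3a, Grm7, Gabbr1 and Glrb separated but not Grik3. When all probe sets of a gene were averaged, 2 members were separated (Grin3a and Gabrp), the median was 0.0581, 3 members in place of 12 were above the off-organ level on every array, and the fold change turned for Gria2 (-0.00876), Grik1 (0.0440), Grm7 (-0.0959), Glra1 (-0.0681), Glra3 (0.0709) and Glrb (-0.22). With the level set at the highest off-organ gene, 7 members stood above it, and with the 75th percentile 14. With the Actb ratio as a block, Grik1 turned to 0.0213. These 3 alternatives were chosen after seeing the data. Shares of separated genes over the whole table are not given for the alternatives above. The cause of the changes between settings was not tested.

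Leaving out each array in turn, the separated members numbered 6 to 9 (Trim9 KO higher; fewer arrays make separation easier) and 0 to 3 (Trim9 KO lower). The first count was 8 without Trim9 KO replicate 2 and 9 without WT replicate 1 or 2, and the second was 3 without Trim9 KO replicate 1 or WT replicate 1, 2 without Trim9 KO replicate 3 and 1 without WT replicate 3 or Trim9 KO replicate 2. Members separated on all 6 arrays stay separated in each of these runs by construction. Shares over all genes in these runs are not given, so the counts cannot be set against the whole table. In the same runs the median fold change was 0.25 (without WT replicate 1) to 0.61, with 0.28 without Trim9 KO replicate 1. The fold change changed sign within the range for Grik1 (-1.18 to 1.16), Grik5 (-2.22 to 0.0645), Grm3 (-1.42 to 0.45), Grm4 (-0.0873 to 1.04), Gabrq (-0.15 to 2.34), Gabrr2 (-0.69 to 1.72) and Glra3 (-2.89 to 0.76). The array whose absence turned the sign was Trim9 KO replicate 1 for Grm3, Grm4, Gabrq and Glra3, Trim9 KO replicate 2 for Grik1, WT replicate 2 for Gabrr2 and WT replicate 3 for Grik5. Of 22 named members, 11 kept their sign in every alternative run. A signal that did not clear the off-organ level on 1 or more arrays limits the reading of 30 members.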
